A study of Mus musculus with 10 samples.

Results

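Aggrecan and 4 secreted ADAMTS proteases were followed in single cells of the mouse hind limb: *Acan*, *Adamts1*, *Adamts4*, *Adamts5* and *Adamts18*. They were chosen by name, as the substrate and its possible proteases, and all 5 are among the 29183 genes listed for both lineages of the study. *Grem1*-TdT mice carry a tamoxifen-inducible creERT under *Grem1* control and a Cre-dependent TdTomato reporter, were fed tamoxifen chow for 2 weeks from 5 to 6 weeks of age, and gave live TdTomato+ cells from articular cartilage and growth plate that had been cut out and digested with collagenase II. *Lepr*-TdT mice carry a constitutive *Lepr*-cre and the same reporter, were matched for age, and gave live CD45-Ter119-CD31- TdTomato+ cells from whole hind-limb bones digested with collagenase I. All mice were C57BL/6, single cells were sorted into 96-well plates, and 8 plates of the *Grem1* lineage and 2 of the *Lepr* lineage were counted. The lineages therefore differ in driver, dissection, enzyme and gate together, and these cannot be told apart from lineage. Which plate held articular cartilage, growth plate or both, and how many mice stood behind a plate, is not given in the labels, so p-values measure the spread between plates, which may be technical.

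Aggrecan is the large proteoglycan of cartilage, whose sulphated sugar chains hold water and resist compression. ADAMTS proteases are secreted zinc enzymes that cut its core protein in the stretch between its first globular domains, and the loss of aggrecan through such cuts is an early step of osteoarthritis. ADAMTS4 and ADAMTS5 are known as the main aggrecanases, ADAMTS1 cuts aggrecan more weakly, and for ADAMTS18 a part in aggrecan breakdown is less settled.

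The DNA that codes for the scissile bond and for the catalytic centres is shown first, since the balance of substrate and proteases turns on this cut. In *Acan* (GRCm38, plus strand, chr7:79053483-79115099), the codons around the aggrecanase cut between the globular domains lie in exon 7 at chr7:79091052-79091075. They are codons 389 to 396 of 2132, and the capitals mark the codons on either side of the cut, for glutamate and alanine.
*Acan* cleavage site: acagagggaGAGGCCctgggcagc
Each protease binds its zinc ion through 3 histidines beside a catalytic glutamate, and the capitals in the 33 bases below mark the codons of those residues. In each of the 4 genes these bases span an exon junction, so the coordinates below take in 1 intron.
*Adamts1* zinc-binding site: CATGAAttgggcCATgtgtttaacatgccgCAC
*Adamts4* zinc-binding site: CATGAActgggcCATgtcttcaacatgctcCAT
*Adamts5* zinc-binding site: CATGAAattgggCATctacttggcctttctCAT
*Adamts18* zinc-binding site: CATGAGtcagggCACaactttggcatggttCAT
The *Adamts1* site spans exons 3 and 4 at chr16:85799191-85799545 on the minus strand, and the *Adamts4* site exons 3 and 4 at chr1:171253210-171253915 on the plus strand. The *Adamts5* site spans exons 2 and 3 at chr16:85878015-85887826 and the *Adamts18* site exons 8 and 9 at chr8:113767168-113771052, both on the minus strand. *Adamts1* and *Adamts4* shared 27 of the 33 bases, whereas every other pair shared 19 or 20. *Adamts1* (chr16:85793827-85803113) and *Adamts5* (chr16:85856173-85901828) are neighbours on the same strand with 53059 bases between them, while *Adamts4* lies at chr1:171250421-171260637 and *Adamts18* at chr8:113697126-113848738.

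Of 768 *Grem1*-lineage and 162 *Lepr*-lineage wells, 684 and 160 with at least 350 detected genes were kept. *Grem1*-lineage cells were split by 4 other transcripts: in 414 cells the summed UMIs (unique molecular identifiers, 1 per counted transcript) of *Clu*, *Cilp* and *1500015O10Rik* exceeded those of *Cnmd* (the Clu/Cilp group), and in 270 cells they did not (the Cnmd group). None of the 5 genes entered this split. UMIs were summed over the cells of a plate or of a plate and group, and levels are given as CPM, counts scaled to 1000000 UMIs over the shared genes after TMM normalisation. Sums held 51229 to 106289 UMIs in the *Grem1*-lineage groups, and *Lepr*-lineage cells were shallower, with a median of 505 UMIs against 1217 in the Clu/Cilp group and 2218.5 in the Cnmd group. The 12 chondrocyte markers listed for both lineages took 18.7% to 22.8% of UMIs in the Clu/Cilp group, 15.9% to 18.9% in the Cnmd group and 0.015% to 0.7% in the *Lepr* lineage, where *Col9a1* and *Epyc* were at 0. These markers include *Cnmd*, a gene of the split, so their shares in the *Grem1*-lineage groups are not independent of the split. The 6 marrow stromal markers took 2.66% to 3.75% in the *Lepr* lineage and at most 0.0402% elsewhere. The 6 haematopoietic markers took 2.02% to 2.61% in the *Lepr* lineage despite the gate, and 0 to 0.451% in the *Grem1*-lineage groups. The 4 synovial fibroblast markers took 1.70% to 2.34% in the Clu/Cilp group and 0.152% to 0.318% in the Cnmd group. In the *Lepr* lineage they took 0.122% to 0.302%, and *Clec3b*, which is among them, was at 0 in every group. Whether this difference has a part in the levels of the 5 genes was not tested. All plates drew on the same 96 well barcodes, and no pair of cells had identical counts.

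*Acan* was abundant in the *Grem1* lineage and nearly missing from the *Lepr* lineage. On the 8 *Grem1*-lineage plates its level ran from 3374 through a median of 5421 to 6830 CPM, from 466 to 890 UMIs a plate. The *Lepr*-lineage plates held 5 and 0 *Acan* UMIs, at 60.4 and 0 CPM, so the lineages did not overlap. The means were 4895 ± 1311 CPM (SD, n = 8 plates) and 30.2 ± 42.7 CPM (SD, n = 2 plates), and the log2 fold change was -7.27 (SE 0.72, adjusted p = 2.58e-06, edgeR quasi-likelihood test with Benjamini-Hochberg adjustment). In this fit 28.9% of the 2944 genes tested were called and 16.7% were lower in the *Lepr* lineage. The size rests on few UMIs: without *Lepr*-lineage plate 1 the log2 fold change was -12.34, a value set by a plate at 0. Against the limit of 3 UMIs on *Lepr*-lineage plate 2, the *Grem1*-lineage mean was at least 128-fold higher. This bound covers that plate only: plate 1 was at 60.4 CPM, and without plate 2 the log2 fold change was -6.37.

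The 5 *Acan* UMIs of the *Lepr* lineage came from 2 cells. A single cell held 4 of them together with 8 UMIs of *Col2a1*, the main collagen of cartilage, 22 of *Col10a1*, the collagen of hypertrophic chondrocytes, and 54 of *Cytl1*, a chondrocyte cytokine, and 9 of *Cxcl12*, a marrow stromal chemokine. The other held 1 *Acan* UMI, 0 of *Col2a1* and 3 of *Cxcl12*.

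The proteases were scarce in both lineages, and edgeR called none between them. *Adamts5* was the only 1 of the 4 to pass edgeR's filter on low counts: it was at 18.4 to 105 CPM on the *Grem1*-lineage plates, with a median of 36.5, and at 181 and 12.8 CPM on the *Lepr*-lineage plates. Its means of 46.4 ± 31.1 and 97 ± 119 CPM differed by a log2 fold change of 1.07 (SE 0.73, adjusted p = 0.284, edgeR). *Lepr*-lineage plate 1 gave 15 of the 16 *Adamts5* UMIs, and without it the log2 fold change was -1.88 (adjusted p = 0.344, edgeR).

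**Figure D1:**
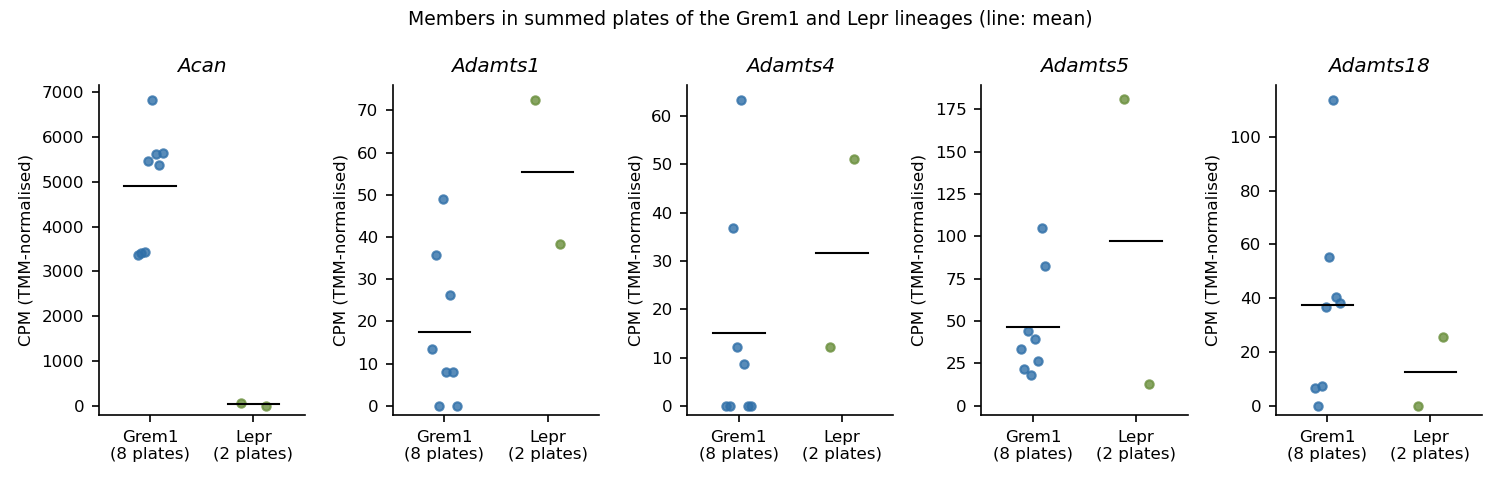
Level of each gene in CPM (vertical axes, from 0) in summed plates of the *Grem1* lineage (8 points) and *Lepr* lineage (2 points), with the mean as a line. *Acan* points of the *Lepr* lineage lie at 0 and 60.4 CPM under *Grem1*-lineage points of 3374 to 6830 CPM, and points of the Adamts genes overlap between the lineages.

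*Adamts1* was at 72.5 and 38.3 CPM on the *Lepr*-lineage plates and at 0 to 49.1 CPM on the *Grem1*-lineage plates, with a median of 10.7. Its ranges overlapped, and the difference of means, 37.8 CPM, had p = 0.0444 in a two-sided exact permutation test over the 10 plates, where 0.0222 is the smallest p that 2 plates against 8 can give. Without the filter on low counts, edgeR gave a log2 fold change of 1.37 (SE 0.80, adjusted p = 0.35), in a fit that called 8.14% of 13283 genes and whose median log2 fold change over all of them was -0.79. *Adamts4* was at 12.1 and 51.1 CPM in the *Lepr* lineage and 0 to 63.4 CPM in the *Grem1* lineage (exact p = 0.489). *Adamts18* was at 0 and 25.5 CPM in the *Lepr* lineage and 0 to 114 CPM in the *Grem1* lineage (exact p = 0.378). These exact p-values were not adjusted over the genes.

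Not 1 *Lepr*-lineage cell held both *Acan* and a protease UMI. Only 2 of the 160 cells held *Acan*, so this count cannot show whether the transcripts keep apart. *Adamts1* was found in 8 *Lepr*-lineage cells, *Adamts4* in 5, *Adamts5* in 10 and *Adamts18* in 1. Every one of these cells held *Cxcl12*, a share that was not set against the other *Lepr*-lineage cells. A single *Lepr*-lineage cell with 4 *Adamts5* UMIs also held 60 UMIs of *Prg4*, the lubricin of the joint surface, 36 of *Clu* and 15 of *Cilp*. Another with 3 held 19 of *Clu* and 13 of *Cilp*. These cells also held 69 and 28 UMIs of *Dcn*, a marker listed here for synovial fibroblasts. The cell with 2 *Adamts5* UMIs held 0 of *Prg4*, 1 of *Clu*, 0 of *Cilp* and 18 of *Cxcl12*. The remaining carriers were not examined in this way.

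Within the *Grem1* lineage, *Acan* fell and *Adamts5* and *Adamts18* were higher in the Clu/Cilp group than in the Cnmd group. *Acan* was at 1807 to 3945 CPM in the Clu/Cilp group, with a median of 2962, and at 3644 to 7528 CPM in the Cnmd group, with a median of 6037. The groups overlapped across plates, but on each of the 8 plates the Clu/Cilp group was the lower one. The means were 2859 ± 862 and 5562 ± 1387 CPM (SD, n = 8 plates), and the log2 fold change was -0.96 (SE 0.21, adjusted p = 0.000955, edgeR). Of 1075 genes tested, 41.3% were called and 20.2% were lower in the Clu/Cilp group, so a call as such is common between these groups. The mean difference of -2703 ± 795 CPM had p = 0.00781 in a two-sided exact sign-flip permutation test over plates, the smallest that 8 plates can give.

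Counted per cell the gap was wider. The Cnmd group held 4079 *Acan* UMIs in 270 cells and the Clu/Cilp group 1315 in 414, which is 4.76 times as many per cell (95% interval 4.47 to 5.07) and 2.52 times as many per UMI (2.37 to 2.68). These exact intervals cover counting error only. The median cell held 14 *Acan* UMIs in the Cnmd group (quartiles 9 and 20.8, highest 80) and 2 in the Clu/Cilp group (quartiles 1 and 5, highest 17). Cnmd cells were also deeper, with a median of 2218.5 UMIs against 1217, which widens the gap per cell. In cells thinned to 796 UMIs the medians were 4 *Acan* UMIs in the Cnmd group and 2 in the Clu/Cilp group.

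**Figure D2:**
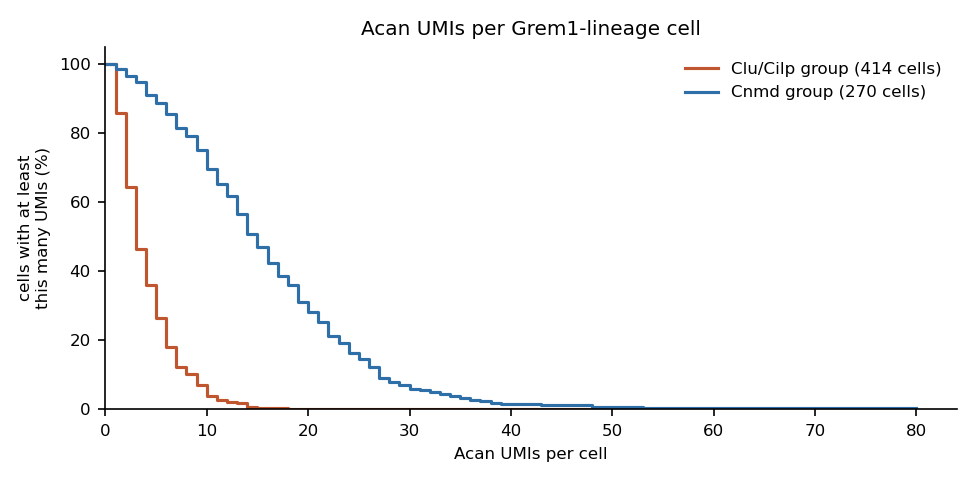
Share of cells in percent (vertical axis) with at least a given number of *Acan* UMIs (horizontal axis) in the Clu/Cilp group (414 cells) and the Cnmd group (270 cells). The Cnmd curve lies above the Clu/Cilp curve, and the highest cells hold 80 and 17 UMIs. Cells are shown as counted, and the Cnmd cells are deeper (median 2218.5 against 1217 UMIs).

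*Adamts5* was found at 1 to 11 UMIs on each plate of the Clu/Cilp group and 0 to 2 in the Cnmd group, 40 and 11 UMIs in all. Its level was 15.8 to 202 CPM in the Clu/Cilp group, with a median of 64.7, and 0 to 24.4 CPM in the Cnmd group, with a median of 17.6. The Clu/Cilp group was higher on 6 of 8 plates, and on plates 2 and 5 it was lower, at 18.1 against 20.7 CPM and 15.8 against 17.6 CPM. The means were 88.4 ± 74.2 and 13.8 ± 9.36 CPM (SD, n = 8 plates), and the difference had p = 0.031 in the two-sided exact sign-flip permutation test. Per UMI the ratio of the groups was 4.48 (95% interval 2.26 to 9.68) and per cell 2.37 (1.19 to 5.12).

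*Adamts18* was found almost entirely in the Clu/Cilp group, with 38 of its 39 UMIs. Its level there was 0 to 213 CPM, with a median of 84.6, and in the Cnmd group it was 0 on 7 plates and 8.8 CPM, from 1 UMI, on plate 5. The Clu/Cilp group was higher on 7 of 8 plates and both groups were at 0 on plate 2. On plates 1 and 4 it held only 1 UMI each, against 0 in the Cnmd group. The means were 86.2 ± 76.7 and 1.1 ± 3.11 CPM (SD, n = 8 plates), with p = 0.0156 in the two-sided exact sign-flip permutation test. With plate 2 tied, this is the smallest p that the test could give. The ratio per UMI was 46.8, with a 95% counting interval of 7.91 to 1897.

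No Adamts gene passed the filter on low counts in this comparison. Without the filter, edgeR gave log2 fold changes of 2.24 for *Adamts5* (SE 0.52, adjusted p = 0.000777) and 4.67 for *Adamts18* (SE 0.74, adjusted p = 3.65e-08), where 5.67% of 12514 genes were called, 3.08% higher and 2.6% lower in the Clu/Cilp group. Both genes were also called by DESeq2 without the filter, which called 5.95%, and by edgeR without the filter and with the plate as a block, which called 6.24%. The median over all of these genes was 0.01.

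*Adamts1* and *Adamts4* had more UMIs in the Cnmd group, but not beyond the spread between plates. *Adamts1* gave 4 UMIs in 3 cells of the Clu/Cilp group and 16 UMIs in 9 cells of the Cnmd group, at 8.27 ± 12.3 and 21 ± 25.4 CPM (SD, n = 8 plates). The Cnmd group was higher on 5 plates, lower on 1 and equal on 2 (exact p = 0.281, two-sided sign-flip permutation test). *Adamts4* gave 4 UMIs in 3 cells and 12 UMIs in 6 cells, at 7.07 ± 14.5 and 16.1 ± 29.3 CPM, and 8 of the 12 came from plate 6 (exact p = 0.625). The 20 *Grem1*-lineage cells with either gene fell on 15 well barcodes, 4 of them on a single one, and a part of that barcode in these counts was not tested.

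**Figure D3:**
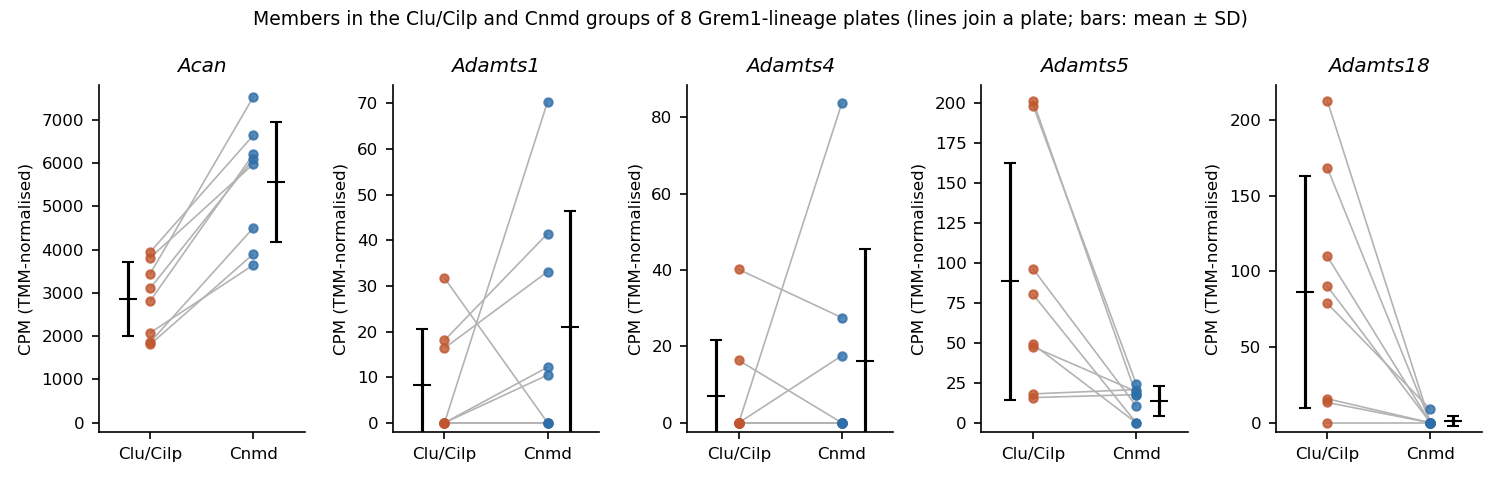
Level of each gene in CPM (vertical axes, from 0) in the Clu/Cilp and Cnmd groups, with 1 point for each of 8 plates, lines joining a plate's groups and bars for the mean ± SD. *Acan* is higher in the Cnmd group on 8 of 8 plates, *Adamts5* is higher in the Clu/Cilp group on 6 and *Adamts18* on 7.

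The order of levels over the 3 cell groups, on a common TMM scale of 18 sums, differed between the genes. By mean, *Acan* ran from the Cnmd group (5830 ± 1447 CPM) through the Clu/Cilp group (2864 ± 842 CPM) to the *Lepr* lineage (31.3 ± 44.3 CPM). *Adamts5* came first in the *Lepr* lineage (101 ± 123 CPM) and the Clu/Cilp group (88.9 ± 74.5 CPM), which did not differ beyond their spread, with the Cnmd group last (14.5 ± 9.85 CPM). *Adamts18* came first in the Clu/Cilp group (86.3 ± 76.5 CPM), and the *Lepr* lineage (13.7 ± 19.4 CPM) and Cnmd group (1.14 ± 3.22 CPM) did not differ beyond their spread. The means of *Adamts1* and *Adamts4* ran from the *Lepr* lineage through the Cnmd group to the Clu/Cilp group, but all 3 ranges of *Adamts4* overlapped. For *Adamts1* the Cnmd group (0 to 72.9 CPM) overlapped both the *Lepr* lineage (41.1 to 75.2 CPM) and the Clu/Cilp group (0 to 31.7 CPM).

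Set against transcript length, *Acan* stood far above its proteases in the *Grem1* lineage. On the scale of CPM per kb of the principal transcript, *Acan* was at 389 ± 117 in the Clu/Cilp group and 756 ± 189 in the Cnmd group (SD, n = 8 plates). In the Clu/Cilp group *Adamts18* was at 15.3 ± 13.6 and *Adamts5* at 8.19 ± 6.87, followed by *Adamts1* at 1.69 ± 2.51 and *Adamts4* at 1.61 ± 3.32. In the *Lepr* lineage *Adamts1* was at 11.3 ± 4.95 and *Adamts5* at 8.99 ± 11, above *Acan* at 4.11 ± 5.81 (n = 2 plates), with overlapping spreads. Whether these UMIs scale with transcript length is not given in the sources used here.

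The balance of substrate and protease transcripts was put as *Acan* UMIs per UMI of the 4 Adamts genes together, not per length. It was 20.9 ± 13.9 in the Clu/Cilp group and 156 ± 95.3 in the Cnmd group (mean ± SD, n = 8 plates), and 45.4 ± 11.1 over all *Grem1*-lineage cells. By plate it ran from 9.75 to 50 in the Clu/Cilp group and from 53.3 to 340.5 in the Cnmd group. These ranges did not overlap, and no test was made, since the ratio is a score over chosen genes. Few protease UMIs stand behind many of the ratios: 2 each in the Cnmd group on plates 1, 4, 7 and 9, and 3 on plate 8. The Clu/Cilp ratio of 50, on plate 2, also rests on 2, so 1 UMI more or less would move these ratios widely. From the summed UMIs the ratios were 15.3 (1315 to 86) and 102 (4079 to 40). In the *Lepr* lineage it was 0.156, from 5 *Acan* UMIs and 32 of the proteases.

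The summed protease UMIs came from different genes in the groups, a difference that was not tested. In the Clu/Cilp group *Adamts5* and *Adamts18* gave 78 of 86 protease UMIs, 90.7% (95% exact binomial interval 82.5% to 95.9%). In the Cnmd group they gave 12 of 40, 30% (16.6% to 46.5%), and *Adamts1* and *Adamts4*, whose zinc-binding sites are the most alike, gave the other 28. Plates 5 and 6 held 10 and 9 of these 28, and on plates 1, 8 and 9 *Adamts5* and *Adamts18* gave 2 of 2, 2 of 3 and 2 of 2 *Cnmd* protease UMIs. In the *Lepr* lineage *Adamts5* and *Adamts18* gave 18 of 32, 56.2% (37.7% to 73.6%). UMIs of 1 cell are not independent, so these intervals cover counting error only.

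**Figure D4:**
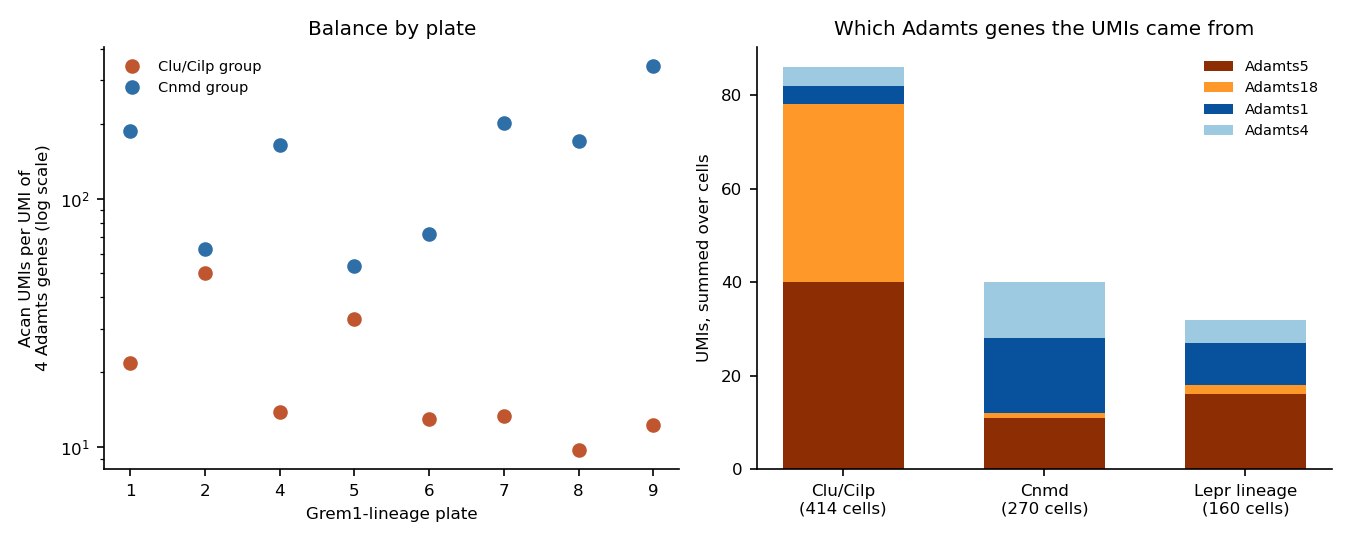
Left, *Acan* UMIs per UMI of the 4 Adamts genes (vertical axis, log scale) on each *Grem1*-lineage plate for the Clu/Cilp and Cnmd groups. Right, summed UMIs of each Adamts gene (vertical axis, from 0) in the Clu/Cilp group, Cnmd group and *Lepr* lineage: the ratio is lower in the Clu/Cilp group on every plate, and *Adamts5* and *Adamts18* make up 78 of its 86 protease UMIs.

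Few cells held a protease UMI. *Acan* was detected in 355 of 414 Clu/Cilp cells (85.7%, 95% exact interval 82% to 89%) and 266 of 270 Cnmd cells (98.5%, 96.3% to 99.6%). In the *Lepr* lineage it was in 2 of 160 cells (1.25%, 0.152% to 4.44%). The cell with 4 *Acan* UMIs also held *Col2a1*, *Col10a1* and *Cytl1*, so this share is not a background share. Median depths of the Clu/Cilp group, Cnmd group and *Lepr* lineage were 1217, 2218.5 and 505 UMIs. *Adamts5* was detected in 33 Clu/Cilp cells (7.97%, 5.55% to 11%), 8 Cnmd cells (2.96%, 1.29% to 5.75%) and 10 *Lepr*-lineage cells (6.25%, 3.04% to 11.2%). *Adamts18* was detected in 28 Clu/Cilp cells (6.76%, 4.54% to 9.63%), 1 Cnmd cell (0.37%) and 1 *Lepr*-lineage cell (0.625%). *Adamts1* was detected in 0.725%, 3.33% and 5% of the Clu/Cilp, *Cnmd* and *Lepr*-lineage cells, and *Adamts4* in 0.725%, 2.22% and 3.12%. None of these groups is known to lack the proteases, so no background share can be given for them.

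Because the groups differ in depth, cells were also thinned to 529 UMIs, which left 413 Clu/Cilp, 269 *Cnmd* and 77 *Lepr*-lineage cells. *Acan* was then in 64.6% of Clu/Cilp and 91.4% of Cnmd cells. *Adamts5* was in 14 Clu/Cilp cells (3.39%, 1.87% to 5.62%), 3 *Lepr*-lineage cells (3.9%) and 0 of 269 Cnmd cells, which allows a share of up to 1.12% of cells with a UMI at this depth and sets no limit on cells expressing the gene, as 8 Cnmd cells held *Adamts5* as counted. *Adamts18* was in 15 Clu/Cilp cells (3.63%, 2.05% to 5.92%) and in 0 of 269 Cnmd cells, with the same limit. At 796 UMIs a cell, with *Grem1*-lineage cells alone, *Adamts5* was in 15 of 355 Clu/Cilp cells (4.23%, 2.38% to 6.87%) and 3 of 261 Cnmd cells (1.15%, 0.238% to 3.32%), whose intervals overlap, and *Adamts18* in 19 of 355 (5.35%) and 0 of 261. At 529 UMIs *Adamts1* was in 2 Clu/Cilp and 4 Cnmd cells and *Adamts4* in 2 and 1, where no order was detectable.

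**Figure D5:**
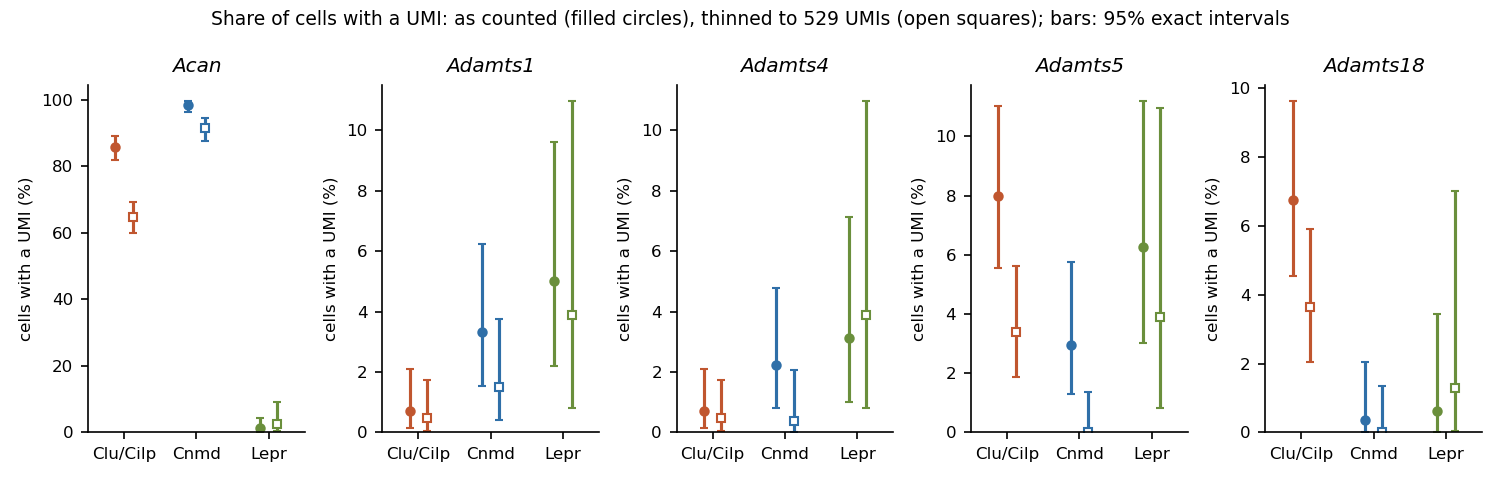
Share of cells with a UMI in percent (vertical axes, from 0) for each gene in the Clu/Cilp group, Cnmd group and *Lepr* lineage, as counted (filled circles) and thinned to 529 UMIs a cell (open squares), with 95% exact intervals. After thinning, *Adamts5* and *Adamts18* are in 3.39% and 3.63% of Clu/Cilp cells and in 0 of 269 Cnmd cells, and *Lepr*-lineage intervals are wide.

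*Acan* and the proteases were met in the same cells. Of the 33 Clu/Cilp cells with *Adamts5*, 30 (90.9%) held *Acan*, against 325 of the 381 cells without *Adamts5* (85.3%). All 33 held *Col2a1*, which was not counted in the other cells. Of the 28 with *Adamts18*, 27 (96.4%) held *Acan*, against 85% of the others. In cells thinned to 796 UMIs, which left 355 Clu/Cilp and 261 Cnmd cells, *Acan* was in 11 of 15 Clu/Cilp cells with *Adamts5* (73.3%) and in 79.7% of those without it. For *Adamts18* the thinned counts were 15 of 19 cells (78.9%) and 79.5%. In the Cnmd group each cell with a protease UMI, 9 for *Adamts1*, 6 for *Adamts4*, 8 for *Adamts5* and 1 for *Adamts18*, held *Acan*. So did 98.5% of the Cnmd cells without the gene in question, so the count shows nothing particular to the carriers.

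*Adamts5* and *Adamts18*, the pair that was higher in the Clu/Cilp group, were seldom met in the same cell. Of the 414 Clu/Cilp cells, 2 held both, 31 held *Adamts5* alone, 26 *Adamts18* alone and 355 neither. *Adamts5* was thus in 7.14% of the cells with *Adamts18* and in 8.03% of those without it. In thinned cells 1 held both. At so few UMIs a cell, these counts cannot show whether the genes keep apart.

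Levels of *Acan* and *Adamts18* also split by plate number. In the Clu/Cilp group *Acan* was at 1807 to 2077 CPM on plates 1, 2 and 4 and at 2815 to 3945 CPM on plates 5 to 9, and in the Cnmd group at 3644 to 4503 and 5978 to 7528 CPM. *Adamts18* in the Clu/Cilp group gave 2 UMIs on plates 1, 2 and 4 (0 to 15.9 CPM) and 36 on plates 5 to 9 (78.9 to 213 CPM), with no overlap. *Adamts5* overlapped between these plates, at 18.1 to 80.3 and 15.8 to 202 CPM. The labels give no batch, and this division of plates was known from earlier results, so no test was made. The *Acan* difference between the groups was present in both sets, at a log2 fold change of -1.08 on plates 1, 2 and 4 (SE 0.17, adjusted p = 0.00127, edgeR) and -0.96 on plates 5 to 9 (SE 0.15, adjusted p = 0.000137, edgeR). Osteoblast markers took 3.56% and 4.88% of Clu/Cilp UMIs on plates 5 and 7 and 0.103% to 0.489% on the other 6, and their part in these levels was not tested.

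Genes whose pattern over the 16 sums was most like *Acan* were found among 1074 other tested genes with a mean of at least 50 CPM. The highest Pearson r of log2(CPM + 1) belonged to *Cdk6*, a cyclin-dependent kinase (0.96), *Chst11*, which adds sulphate to chondroitin chains (0.94), and the collagens *Col27a1* (0.92), *Col11a2* (0.92) and *Col9a3* (0.90). Taken within the groups, after their means were removed, r was 0.78 to 0.89. The sums share plates and depth, so these values are a description. All 5 genes were lower in the Clu/Cilp group, as *Acan* was. They were picked by their r to *Acan* over these same sums, so this direction follows largely from the choice and adds no support. *Cdk6* was at 204 ± 121 against 887 ± 417 CPM (log2 fold change -2.15, SE 0.37) and *Chst11* at 182 ± 98.3 against 735 ± 299 CPM (-2.02, SE 0.32). The collagens fell by 1.53 to 2.00 on the log2 scale.

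Beyond the 5 genes, 61 others were listed as relatives, partners, inhibitors or activators, and 36 of them are listed for both lineages. Between the lineages 13 passed the filter and 5 were called, 3 higher and 2 lower in the *Lepr* lineage, with a median log2 fold change of 0.68 over the 13 against -0.11 over all 2944 genes, of which 12.2% were higher and 16.7% lower. *Adamts2*, which trims procollagens, gave 32 and 64 UMIs on the *Lepr*-lineage plates, in 60 of 160 cells, and 20 in the whole *Grem1* lineage. Its means were 602 ± 304 (n = 2 plates) and 19.1 ± 30.5 CPM (n = 8 plates), and the log2 fold change was 4.97 (SE 0.68, adjusted p = 5.5e-05, edgeR). *Adam8*, a membrane protease, rose by 4.77 on the log2 scale, at 99.1 ± 13.7 against 2.38 ± 6.74 CPM (SE 0.87, adjusted p = 0.000688, edgeR), a call that DESeq2 did not make (adjusted p = 0.095), and *Fbln1*, a matrix protein known as a cofactor of ADAMTS1, by 5.59 (SE 0.70, adjusted p = 2.82e-05, edgeR).

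*Comp* and *Fn1*, which code for proteins of the cartilage matrix, were lower in the *Lepr* lineage. *Comp*, which binds collagen and aggrecan, was at 128 ± 109 against 5475 ± 414 CPM (log2 fold change -5.40, SE 0.49, adjusted p = 9.84e-07, edgeR). *Fn1*, fibronectin, was at 208 ± 168 against 6899 ± 2630 CPM (-5.04, SE 0.65, adjusted p = 3.28e-05, edgeR). Of 4 further listed ADAMTS genes that degrade aggrecan, none passed the filter. *Adamts15* gave 9 UMIs in 9 *Lepr*-lineage cells and 0 in the *Grem1* lineage. *Adamts9* gave 4 UMIs in the *Lepr* lineage, 5 in the Clu/Cilp group and 2 in the Cnmd group. *Adamts8* gave 0, 0 and 1 in that order, and *Adamts20* gave 0 throughout.

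Between the cell groups 4 of these genes passed the filter, and only *Comp* was called, at 6296 ± 529 CPM in the Clu/Cilp group against 4148 ± 771 CPM in the Cnmd group (log2 fold change 0.60, SE 0.14, adjusted p = 0.00201, edgeR), where 21.1% of all genes tested were higher. Without the filter the *Comp* call was lost in edgeR without a block (0.42, adjusted p = 0.239). It was kept there by DESeq2 (0.54, adjusted p = 0.000213) and by edgeR with the plate as a block (0.43, adjusted p = 0.0244). The median log2 fold change was -0.19 over the 4 genes and 0.02 over all 1075. *Furin*, which activates ADAMTS proenzymes, gave 137 UMIs in the Clu/Cilp group and 247 in the Cnmd group, with adjusted p = 0.629 (edgeR).

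Without the filter 30 list genes could be fitted, among them the 4 that passed it, and 5 were called, 4 higher and 1 lower in the Clu/Cilp group, in a fit that called 5.67% of 12514 genes, 3.08% higher and 2.6% lower. These 5 are named after their values were seen. The Clu/Cilp and Cnmd groups held 17 and 3 UMIs of *Adamts2*, 17 and 2 of *Adamts6*, and, of the ADAMTS-like proteins without a catalytic domain, 16 and 1 of *Adamtsl2* and 29 and 5 of *Adamtsl3*. *A2m*, a broad protease inhibitor that traps ADAMTS enzymes, went the other way with 7 and 70 UMIs (log2 fold change -2.66, SE 0.52, adjusted p = 1.82e-05, edgeR). With DESeq2 in place of edgeR neither *A2m* (adjusted p = 0.124) nor *Adamts2* (adjusted p = 0.0578) was called, and with the plate as a block *Adamts2* was not called in edgeR (adjusted p = 0.091).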

How the data were processed

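UMI counts of single *Grem1*- and *Lepr*-lineage cells in 96-well plates were analysed as deposited by the authors: whole-number counts per gene and cell, not normalised. The submitters' processing notes name mm10, UMI-tools, STAR, featureCounts, SAMtools and Seurat, without versions or strand settings. The *Grem1*-lineage table ends within the alphabet, so later genes (*Timp3*, *Mmp13* and others) were not analysed there. Counts were summed per plate, or per plate and cell group, over cells with at least 350 detected genes, and tested with edgeR 4.0.16 (TMM, filterByExpr, quasi-likelihood test, Benjamini-Hochberg over all genes tested, threshold 0.05). The SE of a log2 fold change is its size over the square root of F. DESeq2 1.42.0, no filter, other scalings, thinned cells, omitted plates and a plate block were tried as alternatives. Exact permutation tests and unfiltered fits by DESeq2 or with a block were added after the data had been seen. In simulated counts 200 genes were changed by 2 on the log2 scale. Of the changed genes that passed the filter, edgeR recovered 66.8% between lineages (2944 genes simulated) and 100% between cell groups (1075 genes simulated). The counts were drawn with the same dispersion for every gene and without pairing by plate, so these shares do not give the power in the real data. Sums of the same plate deviated together (correlation 0.144 to 0.417 on 8 of 8 plates, -0.038 between different plates), so the plate pairs the groups. Shares carry 95% Clopper-Pearson intervals. Coordinates and coding sequences come from GENCODE on GRCm38. List genes were to be named where they passed the filter and the threshold, and genes like *Acan* were the 5 with the highest r. Named beyond that rule were *Furin*, *Adamts15* and its close relatives, the genes called only without the filter, and those counted only in the *Lepr* lineage. The members and lists were chosen with earlier results of these data known.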

Additional observations from a re-analysis of the deposited data

Results flagged for a closer look

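Of 17 sets of 8 plates examined, 3 held a plate that stood apart from the others by Dixon's criterion, and chance alone gives about 1 in 20. All 3 rest on few UMIs: *Adamts4* at 40.2 CPM on plate 4 of the Clu/Cilp group, *Adamts4* at 83.8 CPM on plate 6 of the Cnmd group, and *Adamts18* at 8.8 CPM, from 1 UMI, on plate 5 of the Cnmd group.

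The 84 *Grem1*-lineage wells with fewer than 350 detected genes, which entered no comparison, still held 121 *Acan* UMIs in 55 wells (65.5%). Scaled as CPM, without TMM, that is 3040 over their 39804 UMIs, within the range of the Clu/Cilp plates, at a median of 501.5 UMIs a well. The same wells held 1 UMI of *Adamts1*, 0 of *Adamts4*, 2 of *Adamts5* and 2 of *Adamts18*. Whether these wells held poor cells or free RNA was not tested.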

How the results depend on the processing

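Of 647 alternative values, 607 kept their direction and their side of the threshold or moved by less than the spread between plates. *Acan* kept its call in all 22 fits between lineages (log2 fold change -12.34 to -6.37, highest adjusted p = 0.00333) and all 23 between cell groups (-1.17 to -0.90, highest adjusted p = 0.00337, edgeR and DESeq2).

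The *Adamts5* difference between lineages ran from -1.88 to 1.90 with a plate left out and was reversed, at -1.88, without *Lepr*-lineage plate 1. In the exact permutation tests the differences of means past 0.05 were 37.8 CPM for *Adamts1* between lineages (p = 0.0444), 74.6 CPM for *Adamts5* (p = 0.031) and 85.1 CPM for *Adamts18* (p = 0.0156) between cell groups. Without the filter, edgeR, DESeq2 and edgeR with a plate block gave 2.24, 2.51 and 2.18 for *Adamts5* and 4.67, 4.96 and 4.62 for *Adamts18*.

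Genes called between lineages (851) numbered 529 to 849 with a plate left out, lowest without *Lepr*-lineage plate 2, 436 on plates 1 and 2 of each lineage with a replicate block, and 451 there without it. Genes called between cell groups (444) numbered 710 without the filter, 744 without it in DESeq2, 781 without it with a block, 239 on plates 1, 2 and 4 and 182 in thinned cells, where 398 genes were tested. The plate block changed no call of the 5 genes.

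Thinning moved the share of cells with a UMI to 64.6% and 91.4% for *Acan* (Clu/Cilp, *Cnmd*), 1.49% and 0.372% for *Adamts1* and *Adamts4* (*Cnmd*), 3.39% and 0% for *Adamts5* and 3.63% and 0% for *Adamts18*. The thinned ratio of *Acan* to proteases in the Cnmd group could not be averaged, as 3 plates held no protease UMI. *Adamts1* and *Adamts4* gave 20 and 16 UMIs in 684 cells, which limits the precision of their values.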

Other observations

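In the *Lepr* lineage, inhibitors of metalloproteases were counted that the *Grem1*-lineage table does not reach. *Timp2* gave 89 UMIs in 60 of 160 cells and *Timp1* 36 UMIs in 27 cells, whereas *Timp3*, the known inhibitor of aggrecanases, gave 1 UMI in 1 cell. Of the proteases outside the ADAMTS family, *Mmp13*, the main collagenase of cartilage, gave 44 UMIs in 28 cells and Htra1 29 UMIs in 24 cells. Hapln1, the link protein that holds aggrecan on hyaluronan, gave 1 UMI. None of these genes was compared with the *Grem1* lineage.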
